A study of Mus musculus with 2 samples.

Results

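The 8 loci described here are those of transcription factors and markers of naive pluripotency, *Zfp42* (*Rex1*), *Pou5f1* (*Oct4*), *Sox2*, *Nanog*, *Klf4*, *Esrrb*, *Tbx3* and *Dppa3*. Each locus was a window that held the gene and about 5 kb on either side in mm9 coordinates, and a CpG was a member when its deposited position lay inside the window. The deposited values give 1 or 2 lines per position, each a separate count of calls, and a CpG was kept when at least 1 of its lines held 5 or more methylation calls in both libraries, which gave 924 CpGs in 235 kb, of 1707425 CpGs kept in the genome. DNA methylation had been measured by reduced representation bisulfite sequencing (RRBS), in which DNA is cut with MspI and TaqI, fragments of chosen sizes are kept, and bisulfite converts unmethylated but not methylated cytosines before sequencing. The cells were E14 mouse ESCs of the 129/Ola background with a Rex1-dGFP knockin reporter, grown on gelatin with LIF and serum, and they were sorted into a *Rex1*-high and a *Rex1*-low population. Both populations therefore carried the same reporter, in the same medium, and the sort read expression from 1 of the 8 loci, *Zfp42*. Each state had 1 library, so that no difference below has a replicate check and every test is one between libraries and not between states. The *Rex1*-high library held 60718476 calls and the *Rex1*-low library 61024229 calls, of which the 8 windows took 0.0520% and 0.0555%. The data hold no expression values, so the identity of the sorted cells could not be tested against marker genes.

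In mouse ESCs, Pou5f1 and Sox2 bind DNA side by side and, with Nanog, maintain the undifferentiated state. Klf4, Esrrb and Tbx3 are further activators of this network that respond to LIF, Wnt or related signals, whereas Zfp42 and Dppa3 are widely used as markers of its naive form. Methylation of CpGs at promoters and enhancers usually accompanies silencing, and CpG islands, the CpG-dense stretches at many start sites, are usually unmethylated in these cells.

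The 250 bases upstream of 2 of the genes show which CpGs near a start site the values below rest on. RefSeq promoter sequences of GRCm38.p6 were placed on the deposited mm9 positions by the spacing of their CpGs. *Sox2* and *Esrrb* were placed without a tie, and in both all deposited positions inside the full 300 bases, which run 50 bases past the start site, matched a CpG of the sequence, 21 for *Sox2* and 7 for *Esrrb*. A second *Esrrb* promoter sequence was not placed within the window. Capitals mark the CpGs kept in both libraries, 15 of 27 in the *Sox2* stretch (chr3:34548668-34548917, plus strand) and 2 of 3 in the *Esrrb* stretch (chr12:87762345-87762594, plus strand). The sequences are those of the reference strain, and base differences of 129/Ola were not examined.
Sox2: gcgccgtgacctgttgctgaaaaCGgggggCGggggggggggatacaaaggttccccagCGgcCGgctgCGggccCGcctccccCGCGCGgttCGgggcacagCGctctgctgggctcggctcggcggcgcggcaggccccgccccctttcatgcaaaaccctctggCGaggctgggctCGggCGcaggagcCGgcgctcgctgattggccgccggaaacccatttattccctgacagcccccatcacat
Esrrb: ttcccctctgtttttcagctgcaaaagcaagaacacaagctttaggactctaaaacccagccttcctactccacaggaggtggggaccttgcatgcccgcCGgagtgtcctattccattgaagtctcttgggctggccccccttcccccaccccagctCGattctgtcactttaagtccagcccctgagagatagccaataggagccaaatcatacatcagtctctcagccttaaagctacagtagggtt
The stretch upstream of *Sox2* was CpG-dense and that of *Esrrb* held few CpGs.

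All 8 loci had a higher mean methylation in the *Rex1*-low library. The methylation of a CpG was the mean over its kept lines, and the value of a locus was the unweighted mean over its CpGs. Over the 924 CpGs the mean was 23.5% for *Rex1*-high and 35.5% for *Rex1*-low, a change of 12.0 percentage points, while all kept CpGs of the genome went from 39.2% to 54.2%, a change of 15.0 points. The loci fell into 3 ranges of change. *Esrrb*, *Zfp42*, *Dppa3* and *Nanog* were higher by between 16.4 and 21.8 points, *Pou5f1* and *Tbx3* by 10.7 and 9.32 points, and *Sox2* and *Klf4* by 3.88 and 2.89 points. When calls were pooled instead, so that deeply read CpGs weighed more, the change over the 8 loci was 5.73 points (95% Newcombe interval 5.02 to 6.44) and that of the genome 5.05 points. All intervals given here reflect counting error alone, and neither calls that share a read nor PCR copies are independent molecules.

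**Figure D1:**
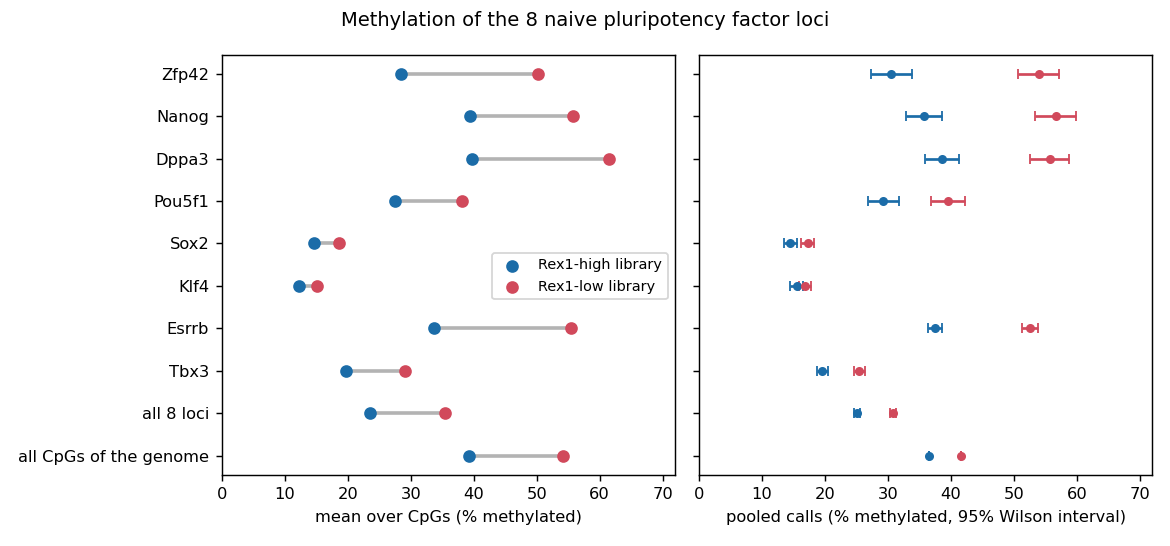
Methylation of each locus in the *Rex1*-high (blue) and *Rex1*-low (red) library, as the mean over kept CpGs (left, %) and as pooled calls with 95% Wilson intervals (right, %). The red point lies to the right of the blue point in every row, by 21.8 points for *Esrrb* and by 2.89 points for *Klf4* on the left, and the intervals on the right overlap for *Klf4* only.

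Each CpG was tested between the libraries with Fisher's exact test, two-sided, with Benjamini-Hochberg adjustment over all kept CpGs of the genome, and called at an adjusted p under 0.05. In the 8 loci 122 CpGs (13.2%) were called more methylated in the *Rex1*-low library, beside 12.6% of all CpGs of the genome. None of the 924 was called less methylated, beside 0.162% of the genome, and 4 were lower at an unadjusted p under 0.05. With a minimum of 10 calls per line, 3 of 741 CpGs (0.405%) were called less methylated, beside 0.402% of the genome at that minimum. By their values alone 572 CpGs (61.9%) were higher, 160 lower and 192 equal, beside 66.1% higher in the genome. *Esrrb* held 51 of the 122 called CpGs, *Tbx3* 29, *Dppa3* 11, *Zfp42* and *Klf4* 8 each, and *Nanog*, *Pou5f1* and *Sox2* 5 each. As a share of the kept CpGs of a locus this was highest at *Dppa3* (28.9%), *Zfp42* (22.2%) and *Esrrb* (20.7%), and lowest at *Klf4* (4.73%) and *Sox2* (3.76%). Without *Esrrb*, 71 of 678 CpGs (10.5%) were called.

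Calls were also summed over 2500 bp tiles with at least 3 kept CpGs, and a tile was called when its adjusted p in Fisher's exact test was under 0.05 and its mean changed by at least 10 points. Of 53 tiles tested in the loci, 37 (69.8%) were called more methylated in the *Rex1*-low library, beside 75.5% of all 162599 tiles, and none was called less methylated, beside 0.0326%. By their mean over CpGs 52 of the 53 tiles were higher, beside 157422 of all 162599 tiles. The Cochran-Mantel-Haenszel test, with CpGs as strata, called 38 tiles, beside 75.3% of all tiles, and again none less methylated, beside 0.0332%. Without *Esrrb*, which held 24 of the tiles, 15 of 29 (51.7%) were called. Among the 16 uncalled tiles, 7 passed the p threshold with a change under 10 points. The called tiles nearest to that limit were 1 of *Tbx3* (10.3 points) and 1 of *Zfp42* (10.6 points), and the nearest under it was 1 of *Pou5f1* (8.47 points).

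**Figure D2:**
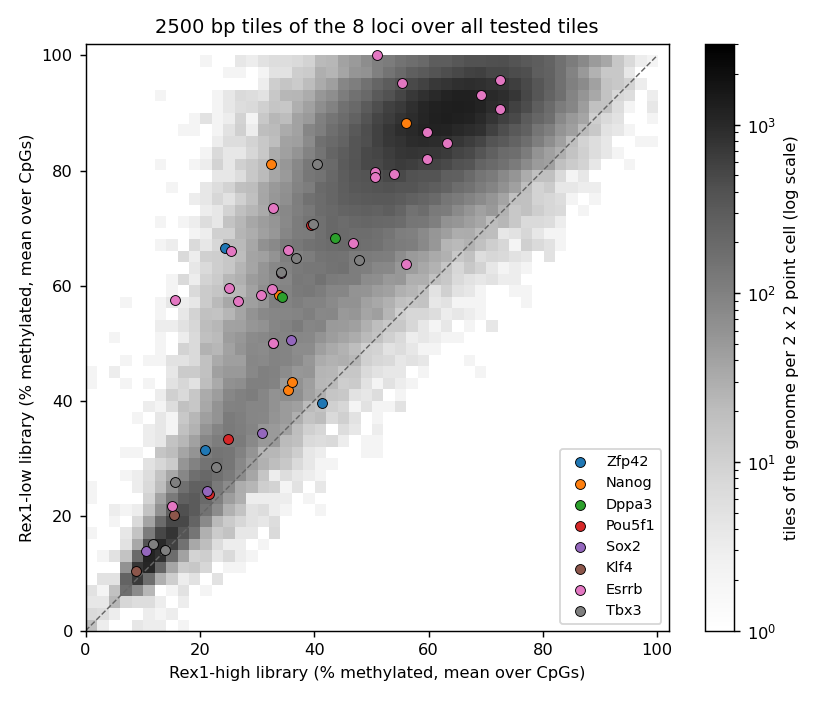
Mean methylation of 2500 bp tiles in the *Rex1*-high library (x axis, %) and the *Rex1*-low library (y axis, %), with the 53 tiles of the 8 loci in colour over all 162599 tiles in grey, where darker cells hold more tiles on a log scale. Of the coloured points 52 lie above the dashed line of equal methylation, and the point below it is a *Zfp42* tile (41.4% and 39.6%) that was higher in the *Rex1*-low library by summed calls.

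*Zfp42*, which encodes the zinc finger protein Rex1 whose expression the reporter read, had 36 kept CpGs in chr8:44375001-44398000. Its mean went from 28.5% to 50.2%. Pooled, 235 of 772 calls were methylated for *Rex1*-high (30.4%, 95% Wilson interval 27.3% to 33.8%) and 475 of 881 for *Rex1*-low (53.9%, 50.6% to 57.2%). The change was not spread evenly over the window. In the tile chr8:44380001-44382500, with 15 CpGs, methylation went from 24.4% to 66.6%, by 42.2 points, with an adjusted p of 2.62e-23 in Fisher's exact test, and 14 of its 15 CpGs were higher. These CpGs lay within 44381182 to 44381529, and RefSeq puts the gene on the minus strand, so that they were on the 3′ side of the window. The CpGs at 44381337 and 44381361, which tied for the largest change of the locus among CpGs with at least 20 calls in each library, each had 0 of 24 methylated calls for *Rex1*-high, which allows up to 12.5%, and 12 of 20 for *Rex1*-low. Nearer to the 5′ side, the tile at 44390001 was at 41.4% and 39.6% and was not called, and by its summed calls, 59 of 151 and 87 of 208 methylated, it was higher in the *Rex1*-low library. It held the deepest CpG of the locus, at 44391172, with 17 of 42 and 19 of 53 methylated calls. Here and below, the deepest CpG is the one with most calls in whichever library held fewer of its calls. The tile at 44392501 went from 20.9% to 31.5% (adjusted p = 0.000119, Fisher's exact test). Thus 7 of the 8 called CpGs of *Zfp42* lay in 1 stretch at its 3′ side.

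*Pou5f1*, the POU-domain factor Oct4 without which the pluripotent state is lost, had 39 kept CpGs in chr17:35638001-35653000. Its mean went from 27.5% to 38.2%. The pooled level was 29.3% (95% Wilson interval 26.9% to 31.8%) and 39.6% (36.9% to 42.3%). Most of its CpGs lay in the tile at 35642501, where 21 CpGs went from 24.9% to 33.4% and missed the limit of 10 points. The tile beside it, at 35645001, went from 21.6% to 23.7%. The tile at 35650001, with 4 CpGs in the 3′ flank of this plus-strand gene, went from 39.5% to 70.5% (adjusted p = 1.03e-05, Fisher's exact test). It held the CpG with the largest change of the locus, at 35651470, with 5 of 49 methylated calls for *Rex1*-high and 24 of 40 for *Rex1*-low. The deepest CpG, at 35643547, was at 0 of 54 calls, which allows up to 5.56%, and at 2 of 104. The other 4 of the 5 called CpGs lay at or upstream of 35643591, and none of the 22 CpGs from 35644181 to 35648817 was called. The change of the locus was 6.88 points when the window was shortened by 5 kb at each end, and 6.33 points with no minimum of calls.

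*Sox2*, the HMG-box partner of Oct4, had 133 kept CpGs in chr3:34544001-34557000. Its mean was 14.7% and 18.6%, and its median CpG was at 0% in both libraries. Pooled, 612 of 4215 calls were methylated for *Rex1*-high (14.5%, 95% Wilson interval 13.5% to 15.6%) and 976 of 5666 for *Rex1*-low (17.2%, 16.3% to 18.2%). The tile at 34547501, with 100 CpGs, went from 10.6% to 13.8%, and 2 further tiles changed by 2.99 and 3.53 points. Only the tile at 34555001, with 8 CpGs downstream, was called, at 36.0% and 50.5% (adjusted p = 0.00769, Fisher's exact test). The CpG with the largest change, at 34549170, had 22 of 30 and 24 of 24 methylated calls, and its adjusted p of 0.0498 in Fisher's exact test was just under the limit. Its 2 lines disagreed in the *Rex1*-high library, and 1 line was kept in the *Rex1*-low library. The deepest CpG, at 34549895, had 34 of 68 methylated calls for *Rex1*-high and 66 of 83 for *Rex1*-low. *Sox2* was thus mostly unmethylated in both libraries, with 24 CpGs at 50% or more for *Rex1*-high and 31 for *Rex1*-low. At 19 of its 28 CpGs between 40% and 60% for *Rex1*-high the 2 lines disagreed, so that these values average unlike lines. With no minimum of calls its change was 1.35 points, and with at least 10 calls per line it was 5.87 points.

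*Nanog*, a homeobox factor that stabilises the undifferentiated state, had 31 kept CpGs in chr6:122652001-122670000, the fewest of the 8 loci. Its mean went from 39.4% to 55.7%. Pooled, 35.6% of 1052 *Rex1*-high calls (95% Wilson interval 32.8% to 38.6%) and 56.6% of 851 *Rex1*-low calls (53.3% to 59.9%) were methylated. The upstream flank of this plus-strand gene held 8 CpGs from 122652151 to 122652515 that were at 28.4% and 31.2%, and 5 CpGs from 122652883 to 122653086 that were at 34.5% and 37.4%. The summed calls of these 5 CpGs, 114 of 313 and 107 of 178 methylated, differed more. In the same flank, 2 CpGs from 122654535 to 122654574 went from 65.0% to 86.6%, and 1 at 122655439 from 90.5% to 100%. Farther in, the tile at 122657501, with 3 CpGs, was at 36.1% and 43.2% and was not called. Beyond it, 3 CpGs in the tile at 122660001 went from 32.5% to 81.2% (adjusted p = 1.89e-08, Fisher's exact test). The 4 in the tile at 122662501 went from 56.1% to 88.3%, and 5 in the tile at 122665001 from 33.9% to 58.3%. At 3 of the 4 CpGs of the tile at 122662501 the 2 lines disagreed in the *Rex1*-high library, and at 2 of those 3 only 1 line was kept in the *Rex1*-low library. The CpG with the largest change, at 122660939, had 5 of 32 methylated calls for *Rex1*-high and 19 of 27 for *Rex1*-low. The tile with most CpGs, at 122652501, had 10 and went from 35.5% to 41.8%, under the limit of 10 points. Its summed calls, 138 of 441 and 166 of 311 methylated, differed more and passed the p threshold (adjusted p = 8.67e-09, Fisher's exact test). Its deepest CpG, at 122653025, was called with 69 of 108 and 72 of 81 methylated calls. When the window was shortened by 5 kb at each end, the change of the locus was 29.6 points over 10 CpGs.

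*Klf4*, a zinc finger factor induced by LIF signalling, had 169 kept CpGs in chr4:55535001-55551000. Its mean of 12.3% in the *Rex1*-high library was the lowest of the 8 loci, and that of 15.2% in the *Rex1*-low library was also the lowest. By pooled calls *Sox2* was lower for *Rex1*-high, at 14.5%. At *Klf4*, 749 of 4838 pooled calls (15.5%) and 1053 of 6260 (16.8%) were methylated. The 95% Newcombe interval of this difference, -0.0449 to 2.71 points, held 0. Neither of its 2 tested tiles was called, at 15.4% and 20.1% for the 73 CpGs of the tile at 55542501, and at 8.91% and 10.5% for the 95 CpGs of the tile at 55545001. The summed calls of the latter, 343 of 2724 and 476 of 3818 methylated, were not higher in the *Rex1*-low library (adjusted p = 0.892, Fisher's exact test). In the Cochran-Mantel-Haenszel test the adjusted p of this tile was 0.000185. The tile at 55542501 passed the p threshold (adjusted p = 0.000403, Fisher's exact test) at a change under 10 points. The CpG with the largest change, at 55546815, had 28 of 87 methylated calls for *Rex1*-high and 40 of 51 for *Rex1*-low (adjusted p = 4.95e-05, Fisher's exact test). The deepest CpG, at 55544328, had 52 of 63 and 72 of 87. Of the 169 CpGs 22 were at 50% or more for *Rex1*-high and 29 for *Rex1*-low, while the median CpG was close to 0%. At 12 of the 16 CpGs between 40% and 60% for *Rex1*-high the 2 lines disagreed, so that these values average unlike lines. With no minimum of calls the change of the locus was 0.910 points.

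*Esrrb*, an orphan nuclear receptor that sustains self-renewal, had the longest window, chr12:87757001-87867000, and 246 kept CpGs. Its mean went from 33.7% to 55.5%. Pooled, 2897 of 7742 calls were methylated for *Rex1*-high (37.4%, 95% Wilson interval 36.3% to 38.5%) and 3231 of 6146 for *Rex1*-low (52.6%, 51.3% to 53.8%). Of its CpGs 203 (82.5%) were higher in the *Rex1*-low library, beside 66.1% of all CpGs of the genome. Of its 24 tiles 22 (91.7%) were called, beside 75.5% of all tiles and 82.4% of all tiles with 3 to 9 CpGs, the class of most *Esrrb* tiles. These 22 tiles were between 15.6% and 72.6% methylated in the *Rex1*-high library, with a median of 48.7%, and had a median of 76.1% in the *Rex1*-low library. Their changes ran from 17.1 to 49.0 points. Both uncalled tiles lay at the 5′ end. The tile at 87762501, which had most CpGs (79), was at 15.1% and 21.7%. Its adjusted p was 0.377 in Fisher's exact test and 1.83e-14 in the Cochran-Mantel-Haenszel test, at a change under 10 points in both. The tile upstream of it, at 87760001, was at 56.0% and 63.8%, a change of 7.77 points. Its summed calls, 130 of 229 and 108 of 134 methylated, differed more and passed the p threshold (adjusted p = 1.15e-05, Fisher's exact test), while its CpG at 87760235 went the other way, with 25 of 32 and 1 of 5 methylated calls.

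Along the *Esrrb* window, the tile with the largest change was at 87827501, where 3 CpGs went from 51.0% to 100%, on 23 of 49 and 20 of 20 methylated calls. Of the called tiles with more CpGs, the tile at 87857501 had most (16) and went from 30.6% to 58.4%. The tile at 87842501 held 15 CpGs within 87842720 to 87843359, all of which were higher and 10 of which were called, and went from 25.2% to 59.6% (adjusted p = 7.03e-31, Fisher's exact test). The tile at 87805001, also with 15 CpGs, went from 32.8% to 73.4%. The lowest called tile in the *Rex1*-high library, at 87822501, had 6 CpGs and went from 15.6% to 57.5%. The CpG with the largest change, at 87793106, had 10 of 44 methylated calls for *Rex1*-high and 32 of 37 for *Rex1*-low, and the deepest, at 87763641 near the 5′ end, had 52 of 84 and 73 of 87.

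*Tbx3*, a T-box factor that sustains naive pluripotency, had 232 kept CpGs in chr5:120115001-120140000. Its mean went from 19.7% to 29.0%. Pooled, 19.5% of 7954 calls (95% Wilson interval 18.7% to 20.4%) and 25.4% of 9184 calls (24.5% to 26.3%) were methylated, a change of 5.86 points. Stretches dense and sparse in kept CpGs alternated along the window. The dense tile at 120120001, with 74 CpGs, was at 13.9% and 14.1%, although its summed calls, 343 of 2437 and 491 of 2658 methylated, differed more (adjusted p = 6.13e-05, Fisher's exact test). The one at 120130001, with 45 CpGs, was at 11.8% and 15.1%. Next to the first, 21 CpGs in the tile at 120122501 went from 34.2% to 62.3% (adjusted p = 5.88e-21, Fisher's exact test). The tile at 120137501, with 17 CpGs, went from 39.9% to 70.7%, and the 3 CpGs of the tile at 120132501, the largest change of the locus, from 40.5% to 81.1%. The tile at 120135001 held dense stretches that differed in their change. Its first 20 CpGs were at 14.8% and 15.4%, and their summed calls, 168 of 931 and 201 of 1193 methylated, went the other way. The 30 CpGs from 120136987 to 120137618, which run past its end, went from 17.9% to 39.6%, and 29 of these were higher. The CpG with the largest change, at 120118884, had 19 of 58 and 16 of 20 methylated calls, and the deepest, at 120130873, had 46 of 95 and 56 of 95.

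*Dppa3* (*Stella*), a maternal factor that protects DNA from loss of methylation in the early embryo and marks naive cells, had 38 kept CpGs in chr6:122571001-122586000. Its mean went from 39.8% to 61.5%, the highest mean of the 8 loci in both libraries. By pooled calls *Nanog* was higher for *Rex1*-low, at 56.6%. At *Dppa3*, 38.6% of 1258 pooled calls (95% Wilson interval 35.9% to 41.3%) and 55.7% of 1018 (52.6% to 58.7%) were methylated. Of its 38 CpGs 32 were higher in the *Rex1*-low library. CpGs under 20% methylation numbered 14 for *Rex1*-high and 3 for *Rex1*-low. The tile at 122575001 went from 43.6% to 68.2% and the tile at 122577501, with most CpGs (14), from 34.4% to 58.0%, and both were called. The deepest CpG, at 122578702, had 8 of 63 and 40 of 90 methylated calls, and the one with the largest change, at 122577307, had 19 of 35, on 2 lines that disagreed, and 25 of 26, on 1 line. The third tile, at 122582501, went from 32.8% to 50.1%. It was not called by Fisher's exact test (adjusted p = 0.142), but was called by the Cochran-Mantel-Haenszel test (adjusted p = 3.91e-05). With no minimum of calls the change of the locus was 12.1 points.

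**Figure D3:**
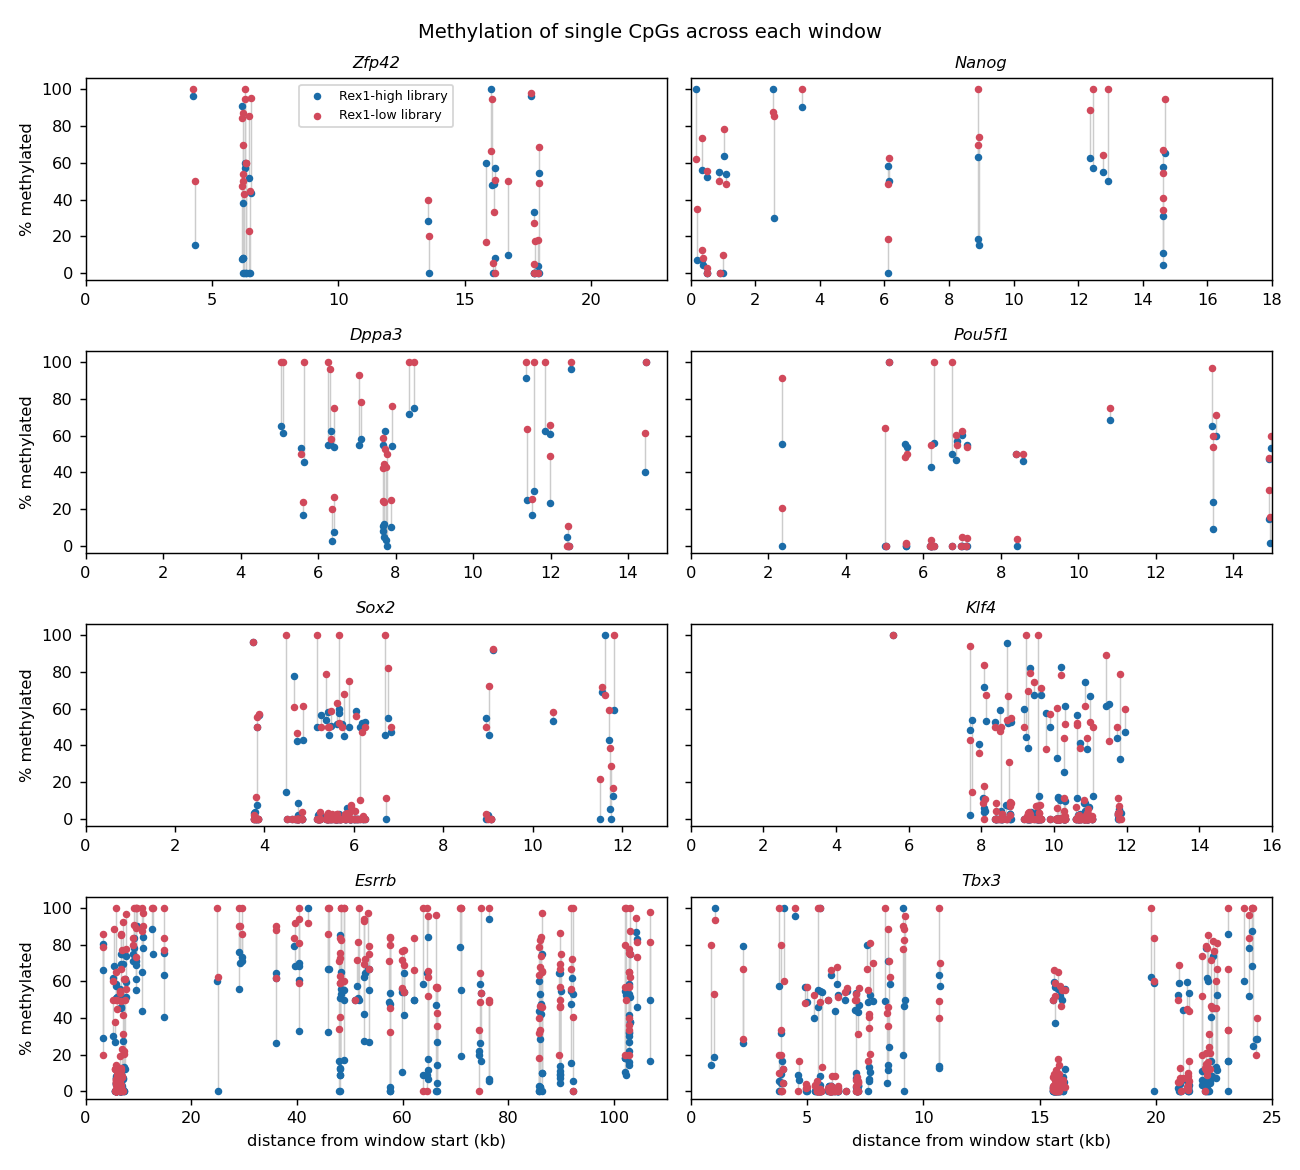
Methylation of each kept CpG (y axis, %) in the *Rex1*-high (blue) and *Rex1*-low (red) library along the 8 windows (x axis, kb from the window start), with a grey line joining the values of a CpG. Red points lie above blue points along most of *Esrrb* and *Dppa3*, whereas in *Sox2* and *Klf4* most points of both colours lie near 0%.

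The number of kept CpGs in a tile went along with its change. Only kept CpGs are counted, so that this number depends on coverage as well as on the CpGs present. In the 34 tiles of the loci with 3 to 9 CpGs, the median change was 25.0 points and 28 were called, 82.4%, beside a median of 24.8 points and 82.4% of all such tiles. In the 10 tiles with 10 to 19 CpGs the median was 26.2 points and 7 were called, beside 22.9 points and 76.2%. In the 9 tiles with 20 or more CpGs the median was 4.67 points and 2 were called, beside 2.25 points and 13.4%. The 2 called tiles of this class were both of *Tbx3*, at 120122501 with 21 CpGs, near the edge of the class, and at 120135001 with 45. The Spearman correlation between the number of CpGs and the change was -0.50 over the 53 tiles and -0.24 over all tiles, as a description without a test, since tiles of a library share its depth. It was -0.66 between the number of CpGs and *Rex1*-high methylation over the 53 tiles, beside -0.45 over all tiles. The levels themselves had medians of 40.0% and 66.2% in the loci's tiles of 3 to 9 CpGs, beside 60.0% and 87.1% in all such tiles. With 10 to 19 CpGs they were 31.7% and 59.0%, beside 47.3% and 76.2%, whereas with 20 or more they were 15.1% and 20.1%, beside 14.2% and 16.3%.

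**Figure D4:**
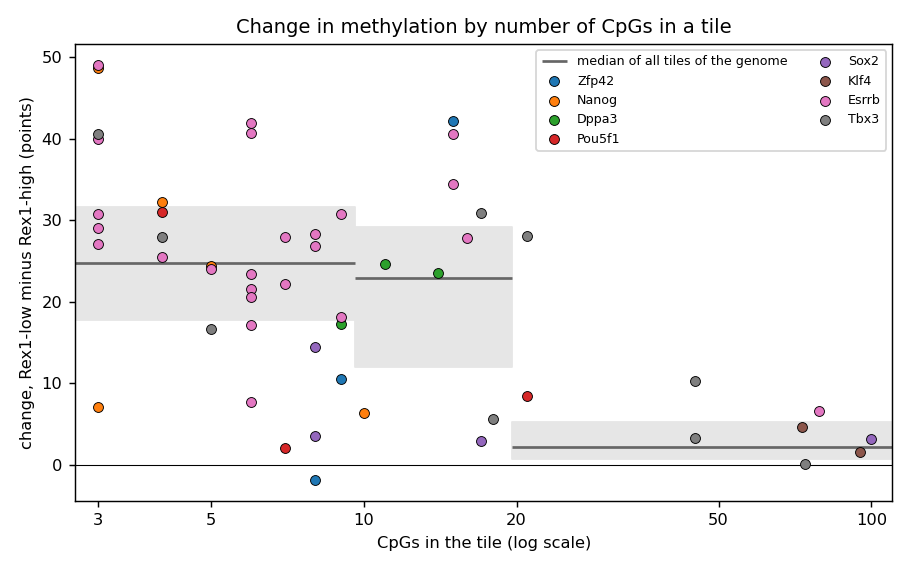
Change in mean methylation of the 53 tiles of the loci (y axis, *Rex1*-low minus *Rex1*-high, percentage points) against the number of kept CpGs in the tile (x axis, log scale), coloured by locus. Grey lines and bands give the median and quartiles of all tiles with 3 to 9, 10 to 19 and 20 or more CpGs. The *Tbx3* tile at 28.1 points lies far above its band, but with 21 CpGs it is near the edge of its class. The band of tiles with 10 to 19 CpGs, 12.0 to 29.2 points, holds this value.

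Start sites could be placed for 3 of the genes. Besides *Sox2* and *Esrrb*, *Klf4* was placed at chr4:55545299-55545598 on the minus strand by a looser treatment of ties that was chosen after seeing the data, with all 11 deposited positions matching. The sequences of *Nanog*, *Zfp42* and *Pou5f1* held or matched too few deposited positions, and no sequence of *Dppa3* or *Tbx3* was used here. Within 0.5 kb of the placed start sites, the 38 CpGs of *Sox2* were at 9.42% and 13.4%, the 62 CpGs of *Klf4* at 6.88% and 7.71%, and the 37 CpGs of *Esrrb* at 13.6% and 18.1%. For *Esrrb* the direction turned with the averaging, since the summed calls, 168 of 753 and 196 of 1038 methylated, were lower as a share in the *Rex1*-low library. At *Esrrb* the low mean came from the downstream side, since the 4 kept CpGs upstream, from 87762265 to 87762503, were at 61.8%, 30%, 68.5% and 26.9% in the *Rex1*-high library and at 60%, 50%, 88.2% and 38.1% in the *Rex1*-low library. In the *Sox2* sequence printed above and the 50 bases that follow it, the 15 kept CpGs were at 6.35% and 7.45%, on 32 of 421 and 49 of 432 methylated calls. The *Klf4* sequence held 40 CpGs, of which 5 were kept, only 1 of them among the 32 in its 250 upstream bases. These 5 were at 14.2% and 10.6%, on 17 of 95 and 41 of 318 methylated calls. *Klf4* was the only one of the 3 that was lower in the *Rex1*-low library, with 2 CpGs lower and 0 higher. The 2 kept CpGs in capitals in the *Esrrb* sequence were at 47.7% and 63.2%, on 47 of 89 and 38 of 55 methylated calls, and neither was called.

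From the placed *Esrrb* start site onward, the change was larger in each successive range of distance, while the level was highest between 2 and 10 kb. From 0.5 to 2 kb downstream, 43 CpGs were at 16.7% and 25.3%. From 2 to 10 kb, 20 CpGs were at 70.0% and 90.2%. Beyond 10 kb, 143 CpGs went from 38.4% to 69.3%, and 45 of these were called, beside 12.6% of all CpGs of the genome. None of the 37 CpGs within 0.5 kb was called. Most of those lay in the tile of 79 kept CpGs, and of all tiles with 20 or more only 13.4% were called. Distance and the number of kept CpGs therefore cannot be told apart here. In *Sox2* and *Klf4*, whose windows end sooner, the CpGs from 2 to 10 kb downstream were at 33.5% and 42.5%, and at 35.9% and 43.2%.

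**Figure D5:**
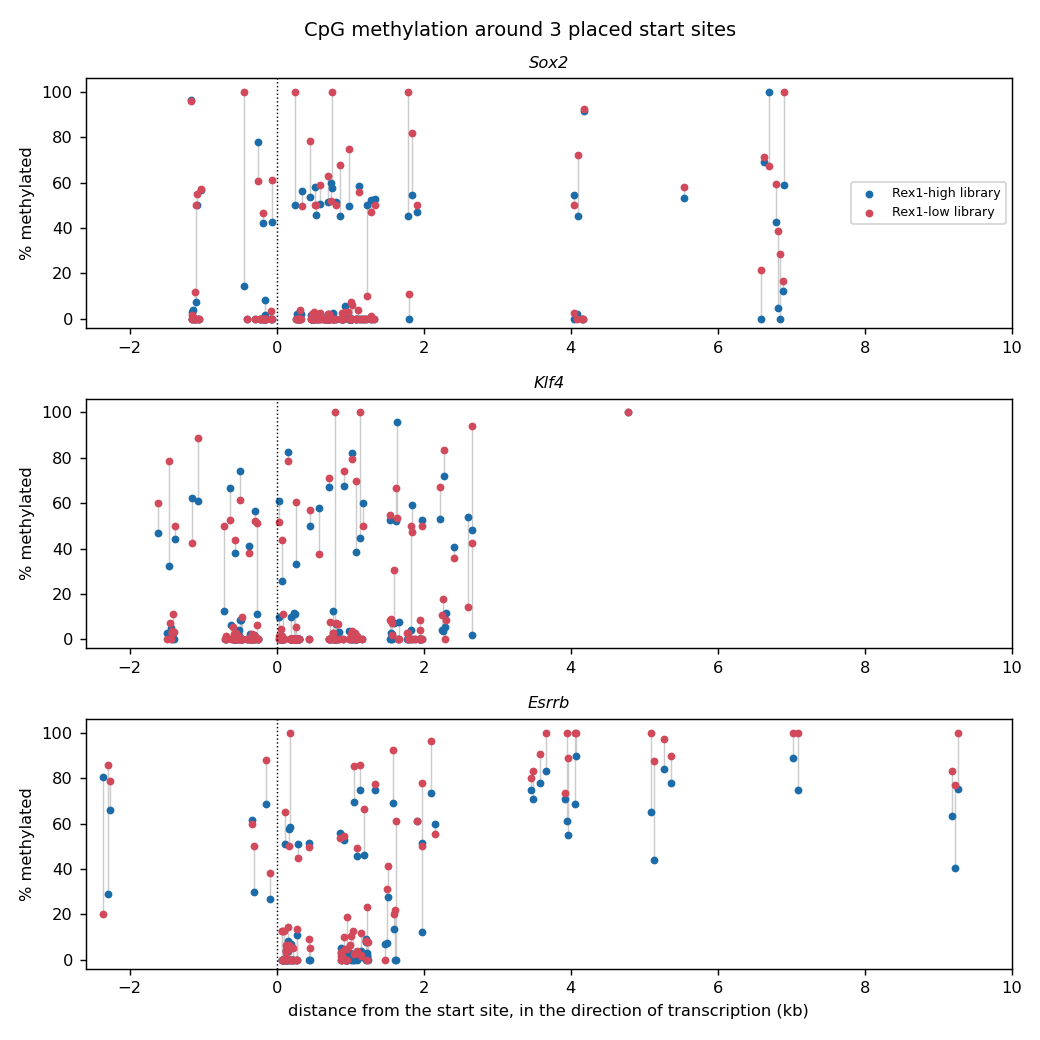
Methylation of kept CpGs (y axis, %) in the *Rex1*-high (blue) and *Rex1*-low (red) library by distance from the placed start site of *Sox2*, *Klf4* and *Esrrb* (x axis, kb in the direction of transcription). CpGs within 0.5 kb are mostly near 0% in all 3 genes, with some CpGs at higher values in each. The 4 just upstream of *Esrrb* are not near 0%. The *Esrrb* CpGs beyond 2 kb are at a mean of 70.0% (blue) and 90.2% (red) up to 10 kb.

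Promoters of other genes of the network were placed by the same rule, but searched over their whole chromosome and not within a window. Of a list of 30 genes of naive pluripotency and LIF signalling, 19 had a sequence and 12 were placed. Their median was 11.2% for *Rex1*-high and 12.7% for *Rex1*-low, with a median change of 1.16 points, beside 11.1%, 11.9% and 0.844 points for 8405 placed promoters with at least 3 kept CpGs. A CpG called more methylated was found in 3 of the 12, those of *Fgf4*, *Il6st* and *Socs3*, beside 28.5% of all placed promoters, and a CpG called less methylated in none, beside 4.89%. None of the 12 changed by 10 points or more upward, beside 4.01%. *Tet2*, which encodes an enzyme that oxidises methylated cytosine, had most CpGs (54) and was at 4.23% and 6.16%. *Lifr* and *Il6st*, the subunits of the LIF receptor, were at 4.91% and 5.97% over 33 CpGs and at 15.8% and 15.7% over 28 CpGs. *Fgf4*, a growth factor that promotes exit from the naive state, was at 9.94% and 11.2% over 28 CpGs, but lower in the *Rex1*-low library by its summed calls, 120 of 875 and 167 of 1372 methylated. The promoters of *Gbx2*, *Klf2* and *Zfp281* also changed direction between the mean over CpGs and the summed calls. The placed promoters were those dense enough in CpGs to be matched, so that promoters with few CpGs are not represented.

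The 2 lines of a CpG did not always agree. At 143 of the 924 CpGs (15.5%), 1 line was at least 80% methylated and the other at most 20% in at least 1 library, beside 8.84% of CpGs in the genome. The share was highest at *Nanog* (29.0%) and lowest at *Klf4* (10.7%). Of the 191 CpGs between 40% and 60% in the *Rex1*-high library, 126 were of this kind, including many of the points near 50% in the dense stretches of *Sox2* and *Klf4*. Without these CpGs the means of *Sox2* were 8.13% and 10.8%, those of *Klf4* 8.28% and 10.3%, and those of the 8 loci 18.5% and 29.9%, a change of 11.5 points. At 25 of the 122 called CpGs the lines disagreed in this way, beside 23334 of the 215010 CpGs called more methylated in the genome. At 1 of the 25, at 35643529 in *Pou5f1*, the summed calls rose while the mean of the lines fell. The deposited values name no strand, and the part of line disagreement in these levels was not tested.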

How the data were processed

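DNA methylation was measured by RRBS in 1 *Rex1*-high and 1 *Rex1*-low library. The submitters' processing notes name Bismark 0.7 and mm9, and the paper adds Galaxy; trimming and the handling of strands are not given in the sources used here. The authors deposited, per line, methylated calls over all calls, and a score equal to 1000 times their ratio, which was not used. The deposited lines include some with fewer than the 5 reads that the paper requires. Here lines with at least 5 calls were kept, and CpGs with such a line in both libraries were analysed, 65.7% and 64.5% of positions having one. The members, the list of 30 further genes and the tests were chosen with earlier results of these data known. Within each locus, the tile with most CpGs, the tile with the largest change, the CpG with the largest change among those with at least 20 calls in each library and the deepest CpG are named, and of the placed promoters of other genes the 4 with most CpGs; further tiles and stretches were named after their values were seen. The deepest CpG was the one with most calls in whichever library held fewer of its calls, and of CpGs that tied 1 is named. Stretches are kept CpGs at most 300 bp apart. A tile belonged to a locus when its midpoint lay in the window. Tests were two-sided Fisher's exact tests on summed calls, adjusted by Benjamini-Hochberg over all tiles or CpGs of the genome, and the direction of a CpG was that of its summed calls. A promoter was placed where at least 6 deposited positions matched its CpG spacing, at least 90% of the positions inside it matched and no other offset matched as many, which held for 8631 of 32851 sequences. No mm9 annotation was used here, so that no CpG was assigned to an exon, intron or UTR. Fisher's exact test and the placement were tested on simulated data. The limit beside a count of 0 is 3 calls of the total. Alternatives varied the minimum of calls, the merging of lines, the pooling of calls, the windows, the tiles, the thresholds and the test. The software was SciPy 1.17.1, numba 0.67.0, pandas 2.3.3, NumPy 2.4.6 and matplotlib 3.10.9 under Python 3.11.15.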

Additional observations from a re-analysis of the deposited data

How the results depend on the processing

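Of 97 alternative values, 64 stayed within counting error of the value reported, or within 1.5 times a count, and 33 moved further. Of the changes in mean 0 reversed, whereas counts were compared by size alone, without their totals, and could not reverse. Shares could therefore differ where a count did not move. With at least 10 calls per line, 152 of 741 CpGs (20.5%) were called more methylated, beside 19.3% of the genome. With tiles of 1000 bp, 43 of 75 (57.3%) were, beside 71.7%. With no minimum of calls, the change was 16.0 points at *Zfp42*, 21.2 at *Nanog*, 12.1 at *Dppa3*, 6.33 at *Pou5f1*, 1.35 at *Sox2*, 0.910 at *Klf4*, 18.5 at *Esrrb*, 10.6 at *Tbx3* and 10.3 over the 8 loci. With at least 10 calls per line it was 30.1 at *Dppa3*, 5.87 at *Sox2*, 24.2 at *Esrrb* and 13.2 over the loci. With lines merged first it was 20.9 at *Nanog*, 11.3 at *Tbx3* and 12.8 over the loci. With calls pooled over CpGs it was 21.0 at *Nanog*, 17.1 at *Dppa3*, 1.34 at *Klf4*, 15.2 at *Esrrb*, 5.86 at *Tbx3* and 5.73 over the loci. With windows shortened by 5 kb at each end it was 29.6 at *Nanog*, 6.88 at *Pou5f1* and 6.72 at *Tbx3*. With each library on its own CpGs it was 6.99 at *Pou5f1* and 10.7 over the loci. CpGs called more methylated numbered 54 of 345 with at least 20 calls per line, 15.7% beside 19.3% of the genome, and 71 of 678 without *Esrrb*. CpGs called less methylated numbered 3 with at least 10 calls per line (0.405% beside 0.402% of the genome) and 1 with at least 20 (0.290% beside 0.429%). With the direction taken from the mean of lines 1 was called (0.108% beside 0.239%). The count reported above was 0. Tiles called more methylated numbered 15 of 29 without *Esrrb*. Tiles called less methylated numbered 0 under every alternative run. The causes of these moves were not tested. The leave-out of *Esrrb* and the direction by the mean of lines were chosen after seeing the data. No paired analysis was possible because each state had 1 library. The margin of the 95% Wilson interval of a single CpG of the loci was, at the median, 10.8 points for *Rex1*-high and 11.1 for *Rex1*-low.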
